A study of Zea mays with 4 samples.

Results

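XTH (Zm00001d030103, described as a probable xyloglucan endotransglucosylase/hydrolase), PMT15 (Zm00001d002625, a probable methyltransferase) and CCR1 (Zm00001d032152, cinnamoyl CoA reductase1) are 3 cell wall genes of maize that were followed from whole leaf into protoplasts. They were chosen by gene identifier, and they are 3 of the 46430 genes annotated in the count tables. XTH and PMT15 stand among the genes that the study listed as enriched in its abaxial bundle sheath (BS) cluster of single cells, and CCR1 is on its list of BS genes (the BS list). The bulk RNA-seq comparison asked how the transcriptome of released protoplasts differed from that of whole leaf tissue of sibling plants. By the methods, that tissue was ground when leaves were harvested to make protoplasts. All 4 libraries were made from polyA RNA of seedlings of the B73 inbred line at stage V2, taken from the distal 6 cm of leaf 2. Leaf libraries 1 and 2 came from ground leaf segments, and protoplast libraries 1 and 2 came from cells freed from such segments by a digestion with cellulases and pectinases lasting several hours. Each library is a pool, for which the labels give 6 plants and the methods give 4 leaves. The methods describe replicates as independently grown plants, taken from a set raised at the same time, so p-values measure the spread between pools of 1 such set.

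Plant cells are held in a wall of cellulose, hemicelluloses and pectin, and the walls of bundle sheath cells in maize also carry lignin and suberin. XTH enzymes cut and rejoin xyloglucan chains in the wall. Relatives of PMT15 in Arabidopsis, such as QUASIMODO2, act in the Golgi in the making of pectin, and CCR enzymes reduce hydroxycinnamoyl-CoA esters at the entry to the monolignol branch that feeds lignin. To make protoplasts this wall is digested away, and bundle sheath cells come out less readily than mesophyll (MS) cells.

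The copy of the leaf 1 counts used here ended within chromosome 3, so that 18609 genes were counted in all 4 libraries, with between 14976340 and 18322950 counts per library over them. Complete libraries held between 41792981 and 47061988 counts. Of the shared genes, 9017 had enough counts to be tested, all 3 wall genes among them. CPM, counts scaled for depth, are scaled to the shared genes with trimmed mean of M-values (TMM) factors, and 3 counts corresponded to between 0.148 and 0.232 CPM. The summed level of 5 BS genes of C4 photosynthesis was 49370 and 48420 CPM in leaf and 2574 and 2645 CPM in protoplasts, whereas that of 2 MS genes of C4 photosynthesis was 8806 and 8794 CPM in leaf and 11380 and 10190 CPM in protoplasts. SUT1, the sucrose transporter that marks companion cells, was at 927 and 872 CPM in leaf and at 1.18 and 1.00 CPM in protoplasts. Plastid genes took 1.02% of counts in leaf 2 and 1.91% and 3.66% in protoplasts. The part of this shift in cell types in each result was not tested, and in bulk RNA fewer cells of a type and less RNA per cell cannot be told apart.

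In the AGPv4 assembly of B73, XTH lies on the minus strand of chromosome 1 from 105862947 to 105867700. Its 4754 bp hold 3 exon blocks of together 1258 bp, of which the last is the largest at 966 bp, and no annotated gene overlaps it. PMT15 lies on the plus strand of chromosome 2 from 17149611 to 17153983, where its 26 listed exons merge to 5 blocks of 3873 bp in all and leave 500 bp of intron. CCR1 lies on the plus strand of chromosome 1 from 214573739 to 214579407, with 4 exons of 1545 bp and 4124 bp of intron. All 550 bp of its last exon are covered by an exon of Zm00001d032153, a gene of the opposite strand. The library kit named in the labels does not mark strand and the counting setting is not given in the sources used here, so reads from that exon cannot be assigned to one of the 2 genes and the CCR1 value is uncertain to that extent.

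**Figure D1:**
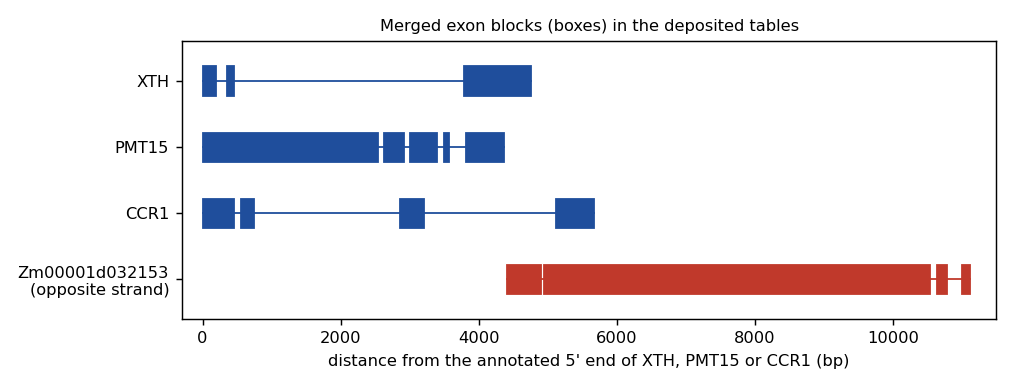
Merged exon blocks (boxes) of the 3 genes and of the gene that overlaps CCR1, against distance in bp from the annotated 5' end of XTH, PMT15 or CCR1. The last of the 4 CCR1 exons lies wholly within an exon of Zm00001d032153, and PMT15 has the least intron, at 500 bp.

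CCR1 was one of the most abundant leaf transcripts among the genes tested and lost most of its level in protoplasts. Leaf libraries 1 and 2 gave 21655 and 17322 counts, and protoplast libraries 1 and 2 gave 1241 and 1585, which is 1068, 989, 77.2 and 122 CPM. Both leaf libraries thus lay far above both protoplast libraries, and the 2 protoplast libraries differed from each other more than the 2 leaf libraries did. The mean level was 1028 ± 55.6 CPM in leaf and 99.8 ± 31.9 CPM in protoplasts (SD, n = 2 each). The log2 fold change, protoplast over leaf, was -3.37 (standard error, SE, 0.253, adjusted p = 7.58e-05 in edgeR's quasi-likelihood test after Benjamini-Hochberg adjustment across the 9017 genes), and 9.70% of the leaf mean remained. Ranked by CPM among the genes tested, CCR1 stood at place 99 in leaf 1 and 106 in leaf 2, and at place 1854 in protoplast 1 and 1398 in protoplast 2. Among all 46430 annotated genes, ranked by share of transcripts corrected for length, it stood at place 359 in leaf 2. In protoplast libraries 1 and 2 that place was 3937 and 3032.

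The gene that overlaps CCR1 was also lower in protoplasts. Zm00001d032153 had 1194 and 918 counts in leaf and 200 and 274 in protoplasts, with a log2 fold change of -1.74 (SE 0.247, edgeR adjusted p = 0.0012). Its counts were a small fraction of those of CCR1 in leaf and a larger one in protoplasts. With the counts of both genes added together, an alternative chosen after seeing the data, the log2 fold change was -3.22 (SE 0.255, edgeR adjusted p = 9.7e-05). Reads of the shared exon that were counted for neither gene would be missing from this sum too, so it does not remove the uncertainty in the CCR1 value.

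With TMM scaling XTH was also lower in protoplasts, by a smaller factor than CCR1. Its counts were 2846 in leaf 1 and 2914 in leaf 2, falling to 1025 and 678 with protoplasts, which is 140, 166, 63.8 and 52.4 CPM. The 2 groups did not overlap. The mean level was 153.3 ± 18.4 CPM in leaf and 58.1 ± 8.07 CPM in protoplasts (SD, n = 2 each), so that 37.9% of the leaf mean remained. The log2 fold change was -1.40 (SE 0.163, edgeR adjusted p = 0.000505). This direction did not hold when libraries were scaled to BS genes, which gave 0.05 with the BS list. The study chose that list with these libraries, so this scaling is not an independent check.

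PMT15 had somewhat higher CPM in protoplasts, a difference that was not called. Leaf 1 and leaf 2 held 1410 and 1266 counts of it, and the protoplast libraries held 1543 and 1207, which is 69.5, 72.3, 96.0 and 93.2 CPM. Both protoplast libraries lay above both leaf libraries, and within each group the libraries were close. The mean level was 70.9 ± 1.96 CPM in leaf and 94.6 ± 1.97 CPM in protoplasts (SD, n = 2 each), a log2 fold change of 0.42 (SE 0.117, edgeR adjusted p = 0.0202). That change passed the p limit of 0.05 but not the fold change limit of 1 on the log2 scale, so it was not called. Its adjusted p in edgeR was 0.205 without leaf 1, 0.182 without leaf 2 and 0.437 when libraries were scaled by their totals.

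Calls needed an adjusted p under 0.05 and a change of more than 1 on the log2 scale in either direction. By this rule CCR1 and XTH were lower and PMT15 was not called, against 23.4% of all genes tested that were lower, 19.6% that were higher and 43% called in either direction. For all 3 genes the leaf and protoplast groups did not overlap, as was so for 83.8% of the genes tested. Of those genes, 686 had a more negative log2 fold change than CCR1 and 1676 a more negative one than XTH. The log2 ratio of library 2 to library 1 was 0.67 for CCR1 in protoplasts, against a median size of 0.233 over all genes in that pair, whereas it was -0.04 for PMT15.

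**Figure D2:**
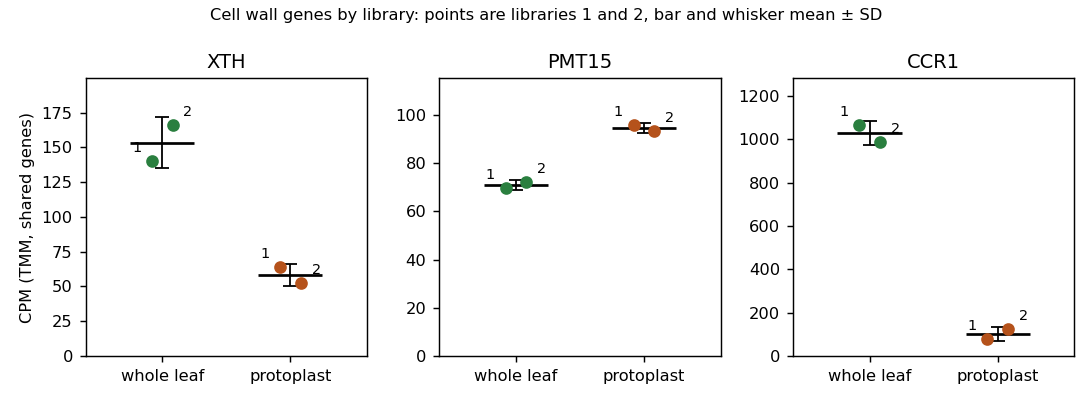
Level of XTH, PMT15 and CCR1 in CPM (vertical axes, linear, each from 0) in the 2 leaf and 2 protoplast libraries, with points numbered by library and bars and whiskers for mean ± SD. CCR1 goes from 1028 to 99.8 CPM and XTH from 153.3 to 58.1 CPM, while PMT15 goes from 70.9 to 94.6 CPM, all with TMM scaling (for XTH the log2 fold change is 0.05 with the BS list and 1.37 with the BS C4 genes).

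Per length, CCR1 and XTH were closer together in protoplasts than in leaf. In counts scaled for exon length and depth (RPKM, over the shared genes), leaf 1 had 691 for CCR1, 111.5 for XTH and 17.95 for PMT15, and leaf 2 had 640, 132.3 and 18.7. In protoplast 1 the values were 49.96 for CCR1, 50.7 for XTH and 24.8 for PMT15, and in protoplast 2 they were 79.2, 41.6 and 24.1. CCR1 was thus first, XTH second and PMT15 last in both leaf libraries and in protoplast 2. In protoplast 1 CCR1 and XTH were nearly tied, and PMT15 remained last. The length used for CCR1 was all 1545 bp, of which 550 bp are shared with Zm00001d032153. The order of CCR1 and XTH in protoplast 1 is therefore not settled. By RPKM, CCR1 moved from percentile 98.8 and 98.7 of the genes tested in leaf to 83.5 and 87.3 in protoplasts, and PMT15 stayed between percentiles 70.4 and 73.4.

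The 3 complete libraries gave values of the same kind without the shared-gene limit. CCR1 took 0.0414% of all counts in leaf 2 (95% exact binomial interval 0.0408 to 0.0421%), against 0.00264% and 0.0037% in protoplast libraries 1 and 2. The share of XTH was 0.00697% in leaf 2 and fell short of that in protoplasts, at 0.00218% and 0.00158%. That of PMT15 was 0.00303% in leaf 2 (0.00286 to 0.0032%), 0.00328% in protoplast 1 (0.00312 to 0.00345%) and 0.00282% in protoplast 2 (0.00266 to 0.00298%), and the interval of leaf 2 overlapped that of either protoplast library. Intervals of this kind cover counting error only.

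The ratio of 2 genes within a library does not depend on how libraries are scaled. The log2 ratio of PMT15 to CCR1 counts was -3.94 and -3.77 in the leaf libraries, against 0.31 and -0.39 in the protoplast libraries. Counts of CCR1 were therefore many times those of PMT15 in leaf, and in protoplasts the 2 genes had similar counts. The mean difference of this ratio, protoplast minus leaf, was 3.82, with an SD of 0.12 in leaf and 0.50 in protoplasts (n = 2 each). The log2 ratio of XTH to PMT15 changed sign, from 1.01 and 1.2 in leaf to -0.59 and -0.83 in protoplasts, a mean difference of -1.82. That of XTH to CCR1 was higher by 2.00 in protoplasts, going from -2.93 and -2.57 to -0.28 and -1.23. Each difference was larger than the spread between replicates. Over the 9 such ratios tested, exact two-sided permutation tests gave p = 0.333 for each, before and after adjustment, which is the smallest value that 2 libraries against 2 allow.

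The same 3 genes were set against genes of the C4 pathway in each cell type. Relative to the summed counts of the 5 BS genes, the log2 ratio of CCR1 was -5.53 and -5.61 in leaf and -5.06 and -4.43 in protoplasts, a mean difference of 0.83. XTH had a mean difference of 2.83 in this ratio and PMT15 one of 4.64, so all 3 ratios to this sum were higher in protoplasts than in leaf. For CCR1 the sign depends on which BS genes weigh most in the sum. With TMM scaling, fructose-bisphosphate aldolase (-5.98), Rubisco small subunit2 (-5.84) and phosphoenolpyruvate carboxykinase1 (-5.41) fell by more on the log2 scale than CCR1 (-3.37). The Rubisco large chain (-2.23) and malate dehydrogenase (-0.835, not called) fell by less. Relative to the 2 MS genes the ratio differed by -3.69 on the log2 scale for CCR1 and by -1.69 for XTH. For PMT15 it was -6.99 and -6.93 in leaf and -6.89 and -6.77 in protoplasts, a mean difference of 0.13.

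**Figure D3:**
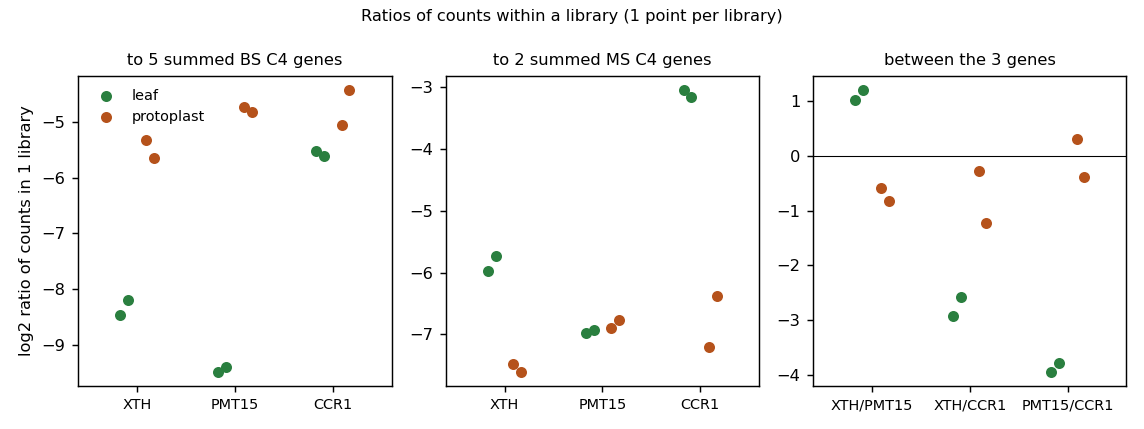
Log2 ratios of counts within a library (vertical axes, 1 point per library) of each gene to 5 summed BS C4 genes (left), to 2 summed MS C4 genes (middle) and between the 3 genes (right). The mean difference for PMT15 is 4.64 against the BS genes and 0.13 against the MS genes, and the ratio of PMT15 to CCR1 moves from about -3.86 to -0.04.

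The methods normalized BS and MS genes separately, and the choice of reference genes set the value of each change. With libraries scaled to the BS list, the log2 fold change was 1.86 for PMT15 (SE 0.122, edgeR adjusted p = 2.15e-05), 0.05 for XTH (SE 0.158, edgeR adjusted p = 0.792) and -1.92 for CCR1 (SE 0.24, edgeR adjusted p = 0.000314). PMT15 was then called higher, as were 63% of the genes tested, CCR1 was called lower, as were 9.95%, and XTH was not called. In either direction 73% of the genes tested were called. The median log2 fold change of all genes tested moved from -0.02 to 1.42 under that scaling, and relative to the median the values were 0.44 for PMT15, -1.37 for XTH and -3.34 for CCR1. Of all calls, 45.6% were higher with TMM and 86.4% with the BS list. The study chose the BS list with these libraries, and CCR1 is itself on it. The adjusted p-values of PMT15, XTH and CCR1 under this scaling are therefore not independent tests. Without CCR1 in that list, an alternative chosen after seeing the data, the 3 values were 1.80 for PMT15, -0.02 for XTH and -1.98 for CCR1.

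Scaled to the MS list, the log2 fold changes were 0.85 for PMT15, -0.97 for XTH and -2.91 for CCR1, where 46.5% of the genes tested were called, 29.1% higher and 17.4% lower. Of all calls, 62.6% were then higher. XTH stood just inside the fold change limit and was not called (SE 0.177, edgeR adjusted p = 0.00254). Scaled to the BS C4 genes alone, also chosen after seeing the data, they were 3.20 for PMT15, 1.37 for XTH and -0.59 for CCR1. CCR1 was therefore the only one of the 3 that was lower under each of these scalings, and PMT15 was higher under each. XTH changed sign between them. A scaling moves all genes alike, so values relative to the median of all genes tested are nearly constant by construction.

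**Figure D4:**
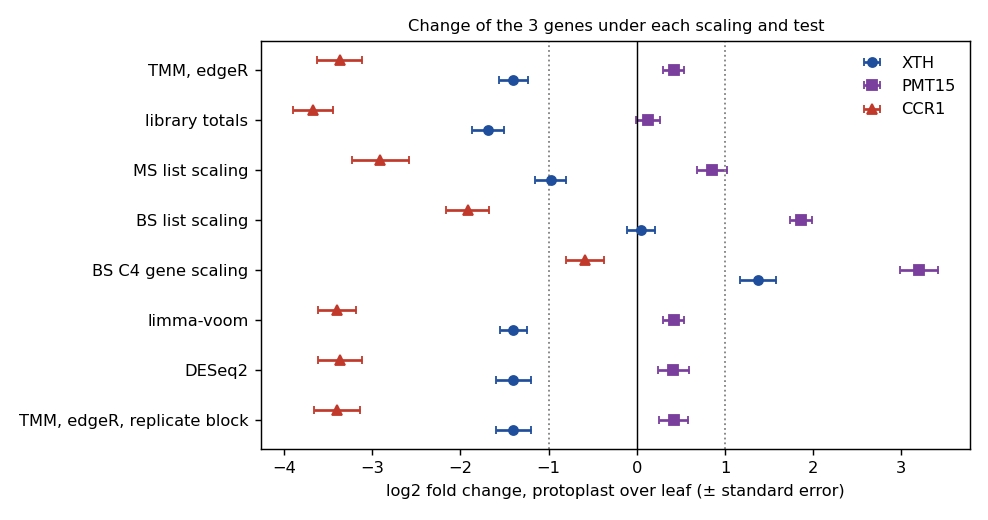
Log2 fold change, protoplast over leaf, of the 3 genes (horizontal axis, whiskers show the standard error) under each scaling and test, with dotted lines at the fold change limit of 1 in either direction. The values of CCR1 stay below 0 and those of PMT15 above 0, while XTH goes from -1.40 with TMM to 1.37 with the BS C4 genes.

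Set beside the genes they were listed with, the 3 genes held different places. Of the 39 genes that the study listed as enriched in the abaxial BS cluster, 14 were tested, and 9 of these were lower while the other 5 were not called, beside 23.4% lower and 19.6% higher over all genes tested. Their median log2 fold change was -1.35, with a range from -7.27 to 0.42. With libraries scaled to the BS list 6 were lower and 3 higher, beside 9.95% lower and 63% higher over all genes tested. PMT15 had the highest value of the 14, and XTH was 7th from the lowest. The paper states that protoplast isolation induced no gene of its abaxial BS subclusters, and that mRNA levels of several were reduced. The 3 higher calls with the BS list scaling used here, PMT15 among them, differ from that statement. Of the 53 genes of the BS list that were tested, 37 were lower and 6 higher beside the same shares over all genes, the median was -3.43, and CCR1 was 29th from the lowest. Scaled to the list itself, 29 were lower and 11 higher, beside 9.95% lower and 63% higher over all genes tested. CCR1 thus lay close to the middle of its list. The study chose that list with these libraries, so its counts are not independent evidence of a direction. The same holds for the place of CCR1 on the list and for its own call.

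Other XTH genes had other values than Zm00001d030103. In the study's gene descriptions 4 genes are XTH genes, all of them detected in its single protoplasts. Zm00001d002410, described as XTH protein 21, had 115 and 60 counts in leaf and 26853 and 27785 in protoplasts, a difference of 8.70 on the log2 scale (SE 0.336, edgeR adjusted p = 8.01e-06). Zm00001d024379, XTH protein 2, had 13232 and 11499 counts in leaf and 12886 and 8540 in protoplasts, a log2 fold change of 0.16 (SE 0.156, edgeR adjusted p = 0.408). Zm00001d017699, which carries the same description as Zm00001d030103, XTH protein 30, was counted in 1 leaf library only, with 59 counts there and 8003 and 7413 in protoplasts. Whether reads that match both of these genes were split between them is not given in the sources used here.

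In TPM, a share of transcripts corrected for length, over the complete libraries, the 4 XTH genes together were at 521 in leaf 2, 1231 in protoplast 1 and 1198 in protoplast 2. Zm00001d030103 made up 14.7% of that sum in leaf 2 and 1.83% and 1.36% in protoplasts. XTH protein 2 was the main transcript of these 4 genes in leaf 2, at 84.7%, and XTH protein 21 in protoplasts, at 52% and 60.5%. This sum over the 4 genes was added after the values were seen, and it rests on 1 leaf library and carries no test. Any XTH gene that lacks such a description in the study is not part of it, so the shares are not shares of the whole family.

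Beyond the 3 genes, a list of 71 wall genes was made from the study's descriptions of genes detected in single protoplasts. Entry to the list needed detection in protoplasts, so genes silent in them are missing, and an excess of higher over lower members cannot be read against the share over all genes, which had no such condition. Of the 28 that were tested, 13 were higher, 5 were lower and 10 were not called, beside 19.6% higher and 23.4% lower over all genes tested. Their median log2 fold change was 0.78, beside -0.02 over all genes. Of the 43 counted in leaf 2 alone, 23 lay more than 2-fold above it in both protoplast libraries and 11 more than 2-fold below, where 17.7% and 20.1% of the 23262 genes with enough counts in the complete libraries did so. Scaled to the BS list, 20 of the 28 tested were higher and 1 lower, beside 63% higher and 9.95% lower over all genes tested. The entry condition and the shares over all genes apply as well to the counts by role that follow.

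Hemicellulose genes, the group of XTH, had 3 of 6 tested genes higher, and the other 3 were not called. Besides XTH protein 21 these were a glycosyltransferase of family 61 (Zm00001d040067), a family that decorates xylan in grasses, at a log2 fold change of 3.69 (SE 0.188, edgeR adjusted p = 1.8e-05), and a glycosyl hydrolase of family 10 (Zm00001d039946) with 3 and 2 counts in leaf and 225 and 310 in protoplasts. Of 11 genes counted in leaf 2 alone, 8 lay above it, among them a galactoside 2-alpha-L-fucosyltransferase (Zm00001d052170), which had 62 counts in leaf 2 and 1946 and 3221 in protoplasts.

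Pectin genes, the group nearest to PMT15 by the role of its relatives, had 3 of 6 tested genes higher and 1 lower. A probable pectinesterase with its inhibitor domain (Zm00001d032100) rose by 3.20 on the log2 scale, from 1013 and 804 counts to 6140 and 6434, and galacturonosyltransferase 13 (Zm00001d030790), of the family that builds the homogalacturonan chain, rose by 2.97. Pectinesterase 31 (Zm00001d032992) fell by 4.46 on the log2 scale, from 1553 and 1376 counts in leaf to 63 and 40 in protoplasts (SE 0.163, edgeR adjusted p = 7.48e-06). Galacturonosyltransferase-like 9 (Zm00001d017984) had 258 counts in leaf 2 and 28804 and 30638 in protoplasts. Among the 6 tested genes, those with the word pectinesterase in their description thus stood at both ends.

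Of the monolignol pathway, in which CCR1 acts, 1 of 4 tested genes was higher and 2 were lower. Cinnamyl alcohol dehydrogenases reduce the aldehydes that CCR makes. One of them (Zm00001d002250) rose by 2.14 on the log2 scale, from 670 and 756 counts to 2351 and 2440, and a putative member of that family (Zm00001d024314) fell by 1.48, from 12996 and 11622 counts to 3152 and 3532. The other lower gene, hydroxycinnamoyltransferase1 (Zm00001d027946), had 13 and 16 counts in leaf and 4 and 2 in protoplasts. Cinnamyl alcohol dehydrogenase 6 (Zm00001d020400) had 0 counts in leaf 2 and 482 and 425 in protoplasts, which was at least 173-fold and at least 190-fold higher when set against 3 counts in leaf 2. A trans-cinnamate 4-monooxygenase (Zm00001d037849), an early enzyme of the pathway, had 4 counts in leaf 2 and 217 and 340 in protoplasts. Another gene of that description (Zm00001d009858), chosen after its values were seen, had 2182 counts in leaf 2 and 1148 and 1355 in protoplasts.

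Further genes of the pathway, chosen after their values were seen, showed both directions as well. Phenylalanine ammonia lyase9 (Zm00001d017275), which opens the phenylpropanoid pathway, had 4135 counts in leaf 2 and 1170 and 857 in protoplasts. Caffeoyl-CoA O-methyltransferase1 (Zm00001d036293) had 306 counts in leaf 2 and 68 and 25 in protoplasts. Another cinnamyl alcohol dehydrogenase (Zm00001d045043) was higher instead, with 735 counts in leaf 2 and 11857 and 15102 in protoplasts.

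Lignin polymerisation genes were here peroxidases and laccases, which oxidise monolignols in the wall, and dirigent proteins, which guide their coupling. In this group 3 of 3 tested genes were higher, beside 19.6% over all genes tested, and entry to the list needed detection in protoplasts. Peroxidase 56 (Zm00001d043238) rose by 7.68 on the log2 scale, from 27 and 31 counts to 4193 and 4832, and laccase-17 (Zm00001d042906) rose by 5.58, from 13 and 19 counts to 481 and 680. Peroxidase 24 (Zm00001d023899) stood at 4 and 5 counts in leaf and at 12 in both pools of protoplasts. Of the 11 counted in leaf 2 alone, 5 lay above it and 4 below. Peroxidase 53 (Zm00001d010218) had 0 counts in leaf 2 and 237 and 390 in protoplasts, and laccase-14 (Zm00001d018064) had 0 and then 19 and 63. Set against 3 counts in leaf 2, these were at least 85.1-fold and 174-fold higher for peroxidase 53, and at least 6.82-fold and 28.1-fold for laccase-14. Of the 4 below, chosen after the values were seen, peroxidase 42 (Zm00001d022456) had 5809 counts in leaf 2 and 300 and 135 in protoplasts.

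Expansins and extensins, proteins that loosen or strengthen the wall, had 1 of 4 tested genes higher and 2 lower. Expansin-like A2 (Zm00001d029783) rose by 2.78 on the log2 scale, while expansin-like6 (Zm00001d027520) fell by 1.79 and an extensin-like protein (Zm00001d027291) fell by 1.16. Expansin-B4 (Zm00001d047096) had 15875 counts in leaf 2 and 5364 and 2258 in protoplasts, and alpha expansin5 (Zm00001d038476) had 259, 602 and 528.

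Genes for nucleotide sugars, the building blocks of wall polysaccharides, had 2 of 4 tested genes higher and 2 not called. UDP-glucuronic acid decarboxylase 4 (Zm00001d040667), which makes UDP-xylose, rose by 1.84 on the log2 scale, and a trifunctional enzyme described as a UDP-glucose dehydratase (Zm00001d028654) rose by 1.07. A further UDP-glucuronic acid decarboxylase (Zm00001d037934) had 881 counts in leaf 2 and 2751 and 3093 in protoplasts, and UDP-arabinopyranose mutase 3 (Zm00001d013751) had 205, 441 and 420. In the glucan group the 1 tested gene was not called. Glucan endo-1,3-beta-glucosidase 14 (Zm00001d012292) had 33 counts in leaf 2 and 3100 and 4459 in protoplasts, and endoglucanase 25 (Zm00001d013319) had 2430, 257 and 199. Another gene described as glucan endo-1,3-beta-glucosidase 14 (Zm00001d042767), chosen after its values were seen, had 591 counts in leaf 2 and 634 and 512 in protoplasts.

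**Figure D5:**
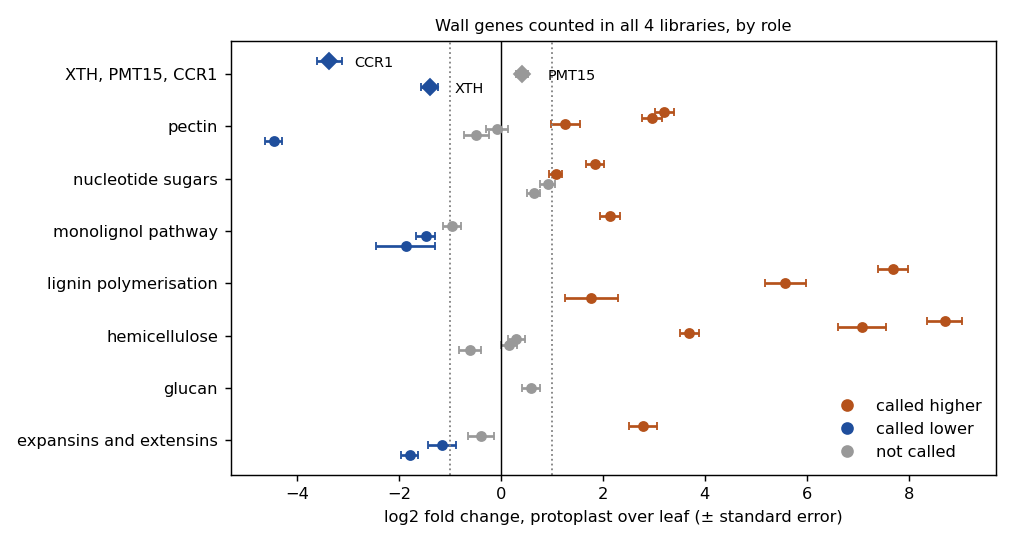
Log2 fold change with its standard error (horizontal axis, TMM scaling) of the 28 wall genes counted in all 4 libraries, by role, with XTH, PMT15 and CCR1 in the top row. Orange marks genes called higher (13 of the list), blue those called lower (5 of the list) and grey those not called. With the BS list as reference 20 were higher and 1 lower, beside 63% and 9.95% of all genes tested.

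The genes whose pattern over the 4 libraries was most like that of each gene were sought among tested genes of similar mean level, by the Euclidean distance between mean-centred log2 CPM. For PMT15, Zm00001d005831 and Zm00001d024713 were closest, each at a distance of 0.0359, and 746 of 1923 candidates lay within 0.5. For XTH, Zm00001d032603 was closest at 0.157, followed by Zm00001d005657 at 0.172, and 103 of 1786 candidates lay within 0.5. For CCR1, the closest was Zm00001d002006, described as H(+)-ATPase 5, at 0.473. It had 25415 and 20201 counts in leaf and 1118 and 1275 in protoplasts, and it was the 1 candidate of 616 within 0.5. By this measure a pattern near that of PMT15 was common at its level, and one near that of CCR1 was rare. The distance also takes in the difference between replicates, which for CCR1 was 0.67 on the log2 scale in protoplasts. Zm00001d003817, the second closest to CCR1, had a log2 fold change of -3.39 and still lay at 0.564. How rare the change of CCR1 from leaf to protoplasts was can therefore not be read from this distance.

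The neighbours of the 3 genes on the chromosome had values of their own. Beside XTH, Zm00001d030102, at 50176 bp, had a log2 fold change of 0.58 (edgeR adjusted p = 0.0117) and was not called, and Zm00001d030105, at 76891 bp, had 4 counts in each leaf library and 0 in protoplasts. Beside PMT15, Zm00001d002624, at 62079 bp, was higher, with a log2 fold change of 1.33 (edgeR adjusted p = 0.00159), and Zm00001d002626, at 36909 bp, was not called at 0.96. Beside CCR1 and the gene that overlaps it, the nearest genes, Zm00001d032150 and Zm00001d032154, had at most 1 count in any library. Hydroxycinnamoyltransferase9 (Zm00001d032148), another monolignol pathway gene, lies 77548 bp from CCR1. It had 10620 and 6912 counts in leaf and 3788 and 3062 in protoplasts, and its log2 fold change of -0.96 (SE 0.177, edgeR adjusted p = 0.00361) lay just inside the fold change limit.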

How the data were processed

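Bulk RNA-seq libraries of 2 whole leaf pools and 2 protoplast pools were analysed. The authors trimmed reads with Trim Galore 0.6.5, aligned them to AGPv4 with STAR 2.5.1b and counted them per gene with featureCounts 2.0.1, and the deposited tables hold the resulting raw counts per gene. Strand and multi-mapping settings are not given in the sources used here. The leaf 1 table ended within chromosome 3 and held 10 damaged lines, so a gene was used there only where its annotation fields matched the other tables. The total of 18322950 counts over those genes is not the depth of leaf 1.

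The software was edgeR 4.0.16, DESeq2 1.42.0 and limma 3.58.1 under R 4.3.3. Genes passing filterByExpr were fitted over all 4 libraries with TMM factors and tested with edgeR's quasi-likelihood test (robust, no replicate block) with Benjamini-Hochberg adjustment. Each standard error was the size of the change over the square root of its F statistic. Called genes had an adjusted p under 0.05 and a change of over 1 on the log2 scale, a size limit taken from the methods. The script was tested on simulated data. RPKM and TPM used the deposited exon lengths, and log2 CPM a prior count of 0.5. For genes without leaf 1, the background of complete libraries used the 23262 genes that passed the filter there and a pseudocount of 0.1 CPM. Gene descriptions came from the study's tables, because identifiers of the reference table of names (assembly NAM-5.0) matched 0 genes.

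The 3 genes and all lists were chosen with earlier results of these data known. Named wall genes are, in each role, up to 3 called genes with the largest log2 fold change in size and up to 2 genes counted in leaf 2 alone that lay more than 2-fold to one side of it in both protoplast libraries. For each of the 3 genes, the 2 closest patterns and the chromosomal neighbours are named. XTH protein 2, hydroxycinnamoyltransferase9 and the genes said to be so were chosen after their values were seen. Alternatives were limma-voom, DESeq2, other scalings (RLE, totals, BS list, MS list), other filters (none, or at least 10 counts in every library), a replicate block, complete libraries and leaving out each library.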

Additional observations from a re-analysis of the deposited data

How the results depend on the processing

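For CCR1, 15 of 16 alternatives with a test kept the direction and the call. The exception was scaling to the BS C4 genes (-0.59), and leaving out 1 library gave -3.77 to -3.06. For XTH, 11 of 15 kept them. The log2 fold change was 0.0467 with the BS list and 1.37 with the BS C4 genes, where the sign turned, and -0.97 with the MS list and -0.0185 with the BS list without CCR1, where the call was lost. Leaving out 1 library gave -1.54 to -1.30. PMT15 became a higher call with the BS list (1.86), the BS list without CCR1 (1.80) and the BS C4 genes (3.20), stayed uncalled in the other 12 of 15, and lay between 0.384 and 0.401 when 1 library was left out. Complete libraries, which give no test, had log2 ratios to leaf 2 of -1.54 for XTH, 0.37 for PMT15 and -3.36 for CCR1. Over all genes tested, 1770 were higher and 2110 lower. The BS list gave 5681 higher and 897 lower, and a minimum of 10 counts in every library gave 1295 lower, with fewer genes tested. Of the wall genes, 13 were higher and 5 lower. The BS list gave 20 and 1, beside 63% and 9.95% over all genes tested. The MS list gave 3 lower, beside 17.4% over all genes tested. Depth limits genes of a few counts, such as hydroxycinnamoyltransferase1 and peroxidase 24.

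The labels number libraries 1 and 2 in each group, without saying that a number marks a shared pool, and deviations of same-numbered libraries correlated at -0.13 across 9017 genes. A fit with a block for the number gave a log2 fold change of -1.40 for XTH, 0.42 for PMT15 (edgeR adjusted p = 0.0572) and -3.40 for CCR1, with 1731 genes higher and 2029 lower, and 12 and 4 of the wall genes. With the pairing crossed, chosen after seeing the data, 1774 genes were higher and 2128 lower, and 13 and 5 of the wall genes. Paired by number, the mean differences of the within-library ratios equal the unpaired ones by construction.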
